A study of Rattus norvegicus with 12 samples.

Results

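Genes through which the endothelium, the inner cell layer of a blood vessel, sets vessel tone and receives white blood cells were followed in coronary arterioles of ageing rats. The 6 genes are Nos3, Cav1, Edn1, Flt1, Vcam1 and Icam1, chosen by their Ensembl gene IDs (ENSRNOG00000009348, ENSRNOG00000056836, ENSRNOG00000014361, ENSRNOG00000000940, ENSRNOG00000014333 and ENSRNOG00000020679). All 6 were among the 24600 gene IDs of the count table, and all 6 were among the 12496 IDs that passed the filter on low counts. The 12 libraries of polyadenylated RNA came from female Fischer-344 rats, with vessels narrower than 150 µm dissected from branches of the left anterior descending artery near the apex. The libraries were 4 from young controls (3 months, untreated), 4 from old controls (24 months, untreated) and 4 from old SVF-treated rats. The last group, labelled 24 months, had been given 10000000 cells of the adipose-derived stromal vascular fraction (SVF, the mixed cells left when fat cells are removed from digested fat) through a tail vein at 23 months, and its vessels were taken 4 weeks later. Every RNA sample was a pool of 5 or more microvessels from its group, so p-values measure the spread between pools, which may be technical in part.

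Nos3 encodes endothelial nitric oxide synthase, whose product nitric oxide relaxes the smooth muscle around the endothelium. Cav1 encodes caveolin-1, the coat protein of caveolae, which binds the synthase and holds it inactive. Edn1 encodes the precursor of endothelin-1, a constrictor peptide that opposes nitric oxide. Flt1 encodes VEGF receptor 1, which binds VEGF-A tightly and signals weakly, and its soluble form acts as a decoy. Vcam1 and Icam1 encode adhesion molecules that hold rolling white blood cells on inflamed endothelium, and their transcription is a textbook target of NF-kB. Caveolin-1 and the adhesion molecules are also made by other cells of the vessel wall.

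The DNA just before the start sites of 4 of these genes is shown because Nos3 with Flt1, and Vcam1 with Icam1, are the pairs whose levels are compared below. Each line holds the 250 bases before the annotated start from RefSeq (build GRCr8), 5′ to 3′ on the gene's own strand. Capitals mark matches, on either strand, to a GC box (GGGCGG), the KLF core (CACCC), the cyclic AMP element (TGACGTCA), the AP-1 site (TGANTCA), the TATA box (TATAAA), the NF-kB-like sequence (GGNNNTTCC), the ETS core (CCGGAA) or the GATA core (AGATAA).
Nos3 (chr4:11706582-11706831, minus strand): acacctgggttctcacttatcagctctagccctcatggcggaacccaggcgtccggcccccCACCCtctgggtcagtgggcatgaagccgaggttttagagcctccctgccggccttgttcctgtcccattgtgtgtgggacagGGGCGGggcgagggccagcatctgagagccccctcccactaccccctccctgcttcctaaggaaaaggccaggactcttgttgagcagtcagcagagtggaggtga
Flt1 (chr12:12333180-12333429, plus strand): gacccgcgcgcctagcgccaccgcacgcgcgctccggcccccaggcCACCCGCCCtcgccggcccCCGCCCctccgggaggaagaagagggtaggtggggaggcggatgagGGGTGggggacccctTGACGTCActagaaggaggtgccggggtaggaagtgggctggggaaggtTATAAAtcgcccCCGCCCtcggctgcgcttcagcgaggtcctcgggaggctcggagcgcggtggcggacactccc
Vcam1 (chr2:206742784-206743033, minus strand): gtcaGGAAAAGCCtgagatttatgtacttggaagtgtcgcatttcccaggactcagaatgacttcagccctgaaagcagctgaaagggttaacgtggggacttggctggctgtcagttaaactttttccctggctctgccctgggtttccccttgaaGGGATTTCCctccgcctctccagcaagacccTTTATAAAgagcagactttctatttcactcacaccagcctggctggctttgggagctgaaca
Icam1 (chr8:27829595-27829844, plus strand): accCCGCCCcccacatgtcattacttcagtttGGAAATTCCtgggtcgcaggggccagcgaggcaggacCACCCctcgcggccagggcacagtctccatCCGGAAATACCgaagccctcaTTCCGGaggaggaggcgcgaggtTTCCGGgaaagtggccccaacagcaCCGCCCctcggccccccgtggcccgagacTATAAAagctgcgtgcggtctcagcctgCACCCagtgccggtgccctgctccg
The Nos3 window held 1 GC box and 1 KLF core. The Flt1 window held 3 GC boxes, 2 KLF cores, 1 cyclic AMP element and 1 TATA box, with a KLF core overlapping a GC box at its 5′ end. Thus the letters found in both were the GC box, present in 30.5% of 33469 rat windows of this length, and the KLF core, present in 49.2%. The NF-kB-like letters were found in the windows of Vcam1 and Icam1 and in none of the windows of Nos3, Flt1, Edn1 and Cav1, against 15.4% of all windows. In Icam1 a copy matches the pattern on both strands, and another overlaps an ETS core. The other letters were held by 1.59% (cyclic AMP element), 6.34% (AP-1), 12.9% (TATA box), 12.6% (ETS) and 10.3% (GATA) of all windows. All 6 members were matched to RefSeq by symbol, and this build is not the one the reads were counted on. These matches describe letters in a fixed window and are no evidence of binding.

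The libraries held 4068021 to 10821485 counts, and 78 to 820 of the tested genes had no count in a library. Old SVF-treated replicate 2 and old control replicate 4 are called here the libraries that stand apart: they had the most tested genes at 0, 820 and 725, and the lowest median rank correlations with the other libraries, 0.939 and 0.945. The remaining libraries reached from 0.948 to 0.963, so by this measure old control replicate 4 lies close to the next one. Young control replicate 3 and old control replicate 1 are taken to lie between their groups from an earlier look at all genes, which was not repeated here. Leaving out libraries picked in this way tends to widen an age difference, so fits without them are no separate test of one. Levels are given as CPM, a gene's counts relative to the TMM-scaled size of its library. They are not divided by transcript length, so the level of one gene is not compared with that of another.

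**Figure D1:**
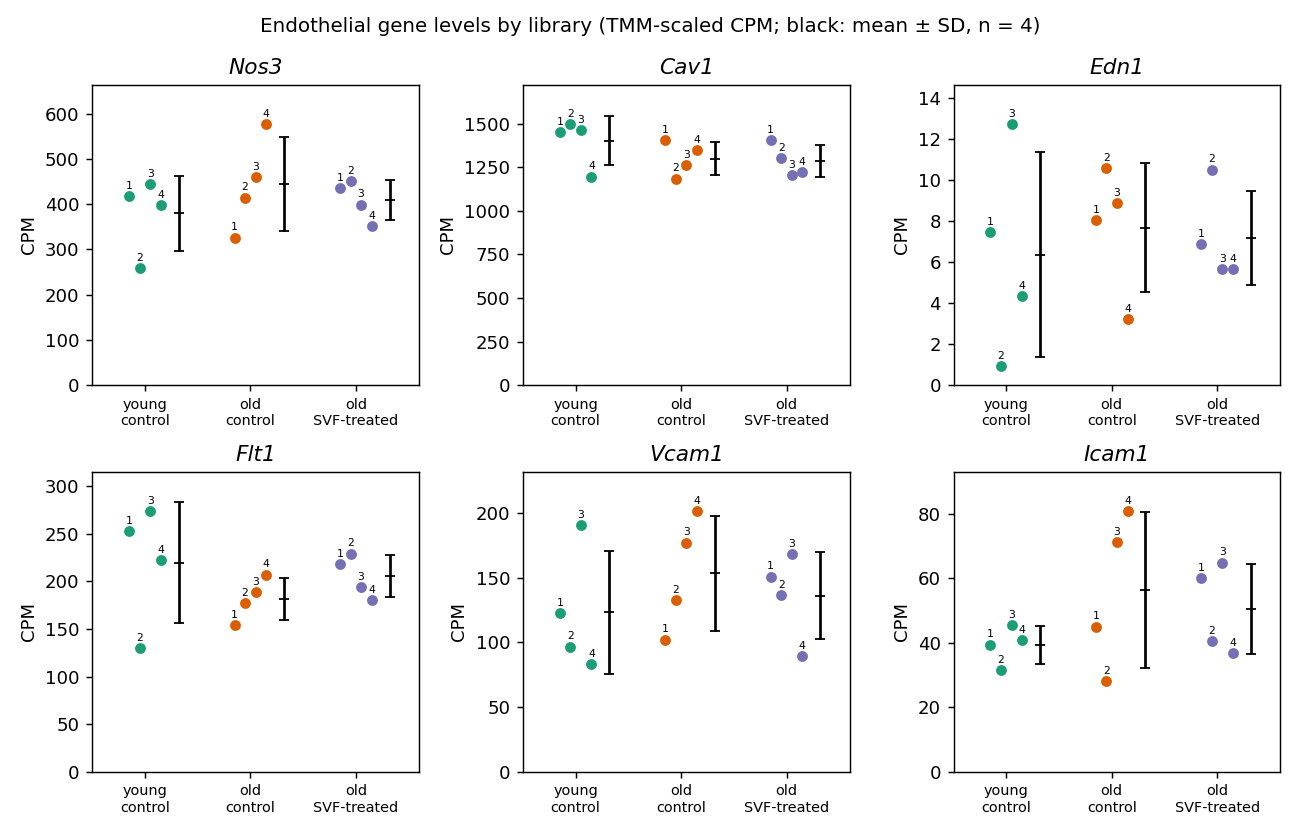
TMM-scaled CPM (y axis, from 0) of each gene in the 12 libraries, by group (x axis); points are libraries labelled with the replicate number, and black bars are mean ± SD (n = 4). In all 6 genes the points of the 3 groups overlap, and Edn1 is the most spread, from 0.940 to 12.7 CPM.

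No member changed detectably with age or after SVF cells. In old against young controls, 0 of 6 members were called by edgeR's quasi-likelihood test at an adjusted p under 0.05, where 0.04% of all tested genes were, and 0 of 6 had an unadjusted p under 0.05, where 5.34% of all genes did. DESeq2 and limma voom also called 0 of 6, and over all genes they called 23 and 17. In old SVF-treated against old controls the members called were 0 of 6 by each of the 3 tools, and each tool called 0 of all genes. No member passed an unadjusted p of 0.05, which 2.94% of genes passed by edgeR. In old SVF-treated against young controls, where age and treatment differ together, 0 of 6 were called by each tool. Over all genes edgeR called 0.064%, DESeq2 56 genes and limma voom 33. No member passed an unadjusted 0.05, which 7.11% of genes passed by edgeR. With so few genes called, 0 of 6 does not set the members apart from other genes. In every member and every comparison the libraries of the groups overlapped. Of all genes, 3.5%, 2.42% and 4.65% did not overlap in the 3 comparisons in that order. The median log2 fold change of the members was 0.24, -0.11 and 0.12 in that order, and over all tested genes it was -0.01, 0.00 and -0.01.

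**Figure D2:**
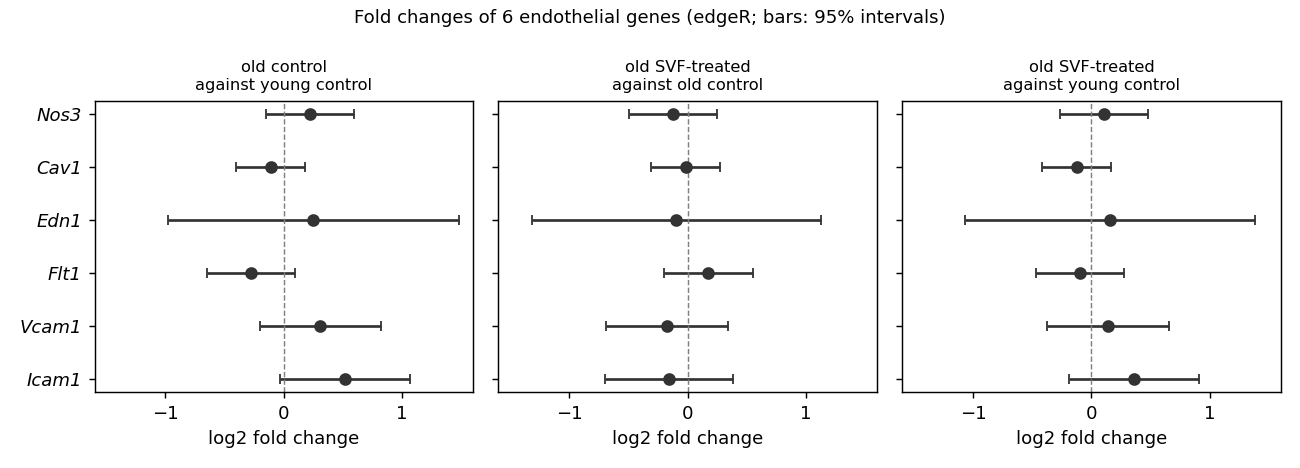
Log2 fold change (x axis) of each gene (y axis) in the 3 comparisons, with edgeR point estimates and 95% intervals. Every interval includes 0, and that of Edn1 is the widest, from -0.98 to 1.48 in old against young controls.

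Nos3, the nitric oxide synthase gene, was at 419, 259, 444 and 399 CPM in young control replicates 1 to 4. The old controls were at 326, 415, 460 and 577 CPM, and the old SVF-treated libraries at 435, 451, 399 and 351 CPM. Young control replicate 2 was the lowest of all 12 libraries and old control replicate 4 the highest, while the treated libraries lay close together in the middle. The means were 380.0 ± 83.1 CPM in young controls, 445 ± 105 in untreated old rats and 409 ± 44.4 in treated rats (SD, n = 4). Old controls exceeded young controls 1.17-fold (95% interval 0.903 to 1.51, edgeR adjusted p = 1.0), and treated rats stood at 0.920 of old controls (0.711 to 1.19, adjusted p = 0.999). Without old control replicate 4 the log2 fold change with age went from 0.23 to 0.075, and that of treated against old controls from -0.12 to 0.031. With all libraries, the data leave room for an age-related increase of up to 1.51-fold in Nos3 RNA and for a decrease to 0.903. In bulk vessels, fewer endothelial cells in a pool and less RNA per endothelial cell cannot be told apart, for this gene as for the others.

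Cav1, the caveolin gene, was the steadiest member. It was at 1452, 1499, 1466 and 1197 CPM in the young controls, 1409, 1186, 1263 and 1348 CPM in the old controls and 1408, 1306, 1206 and 1225 CPM in the treated rats. Young control replicates 1 to 3 lay above all the others, and young control replicate 4 was among the lowest. The means were 1404 ± 139, 1301 ± 97.5 and 1286 ± 92.0 CPM (SD, n = 4). The coefficient of variation within a group was 7.15% to 9.91%. The relative counting error of a single library, as a root mean square over the group, was 0.994% to 1.13%. The ratio of old to young controls was 0.927 (95% interval 0.756 to 1.14, edgeR adjusted p = 1.0), and that of treated to old controls was 0.988 (0.806 to 1.21, adjusted p = 0.999). These are the narrowest intervals among the members.

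Edn1, the endothelin-1 gene, was the least well measured. Its counts were 63, 5, 95 and 17 in young controls, 62, 71, 74 and 29 in old controls and 77, 70, 40 and 44 in treated rats. Scaled to depth these were 7.44, 0.940, 12.7 and 4.35 CPM, then 8.04, 10.6, 8.88 and 3.22 CPM, then 6.87, 10.5, 5.67 and 5.67 CPM. The lowest and the highest library of the study were both young controls, replicates 2 and 3, so the young group spans the others. The exact 95% Poisson interval of the 5 counts in young control replicate 2 was 1.62 to 11.7, against 76.9 to 116 for replicate 3, so this gap exceeds counting error. The coefficient of variation was 78.6% in young, 41.1% in old and 31.9% in treated libraries. The relative counting error of a single library, as a root mean square over the group, was 26.7%, 14.0% and 13.7%. The 26.7% comes mostly from the library with 5 counts, so it overstates the part of counting in the 78.6%. Old controls exceeded young controls 1.19-fold with a 95% interval of 0.508 to 2.79 (edgeR adjusted p = 1.0), and without young control replicate 2 the log2 fold change turned from 0.25 to -0.10. Neither a change to 0.508 nor one to 2.79-fold can therefore be told from no change.

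Flt1, the VEGF receptor 1 gene, was at 252, 130, 274 and 222 CPM in young controls, 154, 177, 189 and 207 CPM in old controls and 218, 229, 194 and 180 CPM in treated rats. Young control replicates 1, 3 and 4 were above every old control, and young control replicate 2 was below all 11 other libraries. The means were 220 ± 63.5, 182 ± 22.2 and 205 ± 22.3 CPM (SD, n = 4). Old controls stood at 0.827 of young controls (95% interval 0.638 to 1.07, edgeR unadjusted p = 0.143, adjusted p = 1.0), and treated rats at 1.13 times old controls (0.872 to 1.46, adjusted p = 0.999). Without young control replicate 2 the log2 fold change with age went from -0.27 to -0.46, the furthest from 0 in any alternative. It was -0.15 without young control replicate 3. Without both libraries between the groups it was -0.059, the nearest to 0, so for Flt1 this omission narrowed the age difference. Gene-level counts join the membrane-bound and the soluble form.

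Vcam1, which binds integrin on lymphocytes and monocytes, was at 123, 96.6, 190 and 83.2 CPM in young controls, 102, 133, 177 and 202 CPM in old controls and 151, 136, 168 and 89.4 CPM in treated rats. A single library set the upper end of the young group, replicate 3, and the lowest treated library fell among the young ones. The means were 123 ± 47.7, 153 ± 44.5 and 136 ± 33.7 CPM (SD, n = 4). Old controls exceeded young controls 1.24-fold (95% interval 0.869 to 1.77, edgeR adjusted p = 1.0), and treated rats stood at 0.887 of old controls (0.622 to 1.27, adjusted p = 0.999). Without the libraries that lie between their groups (young control replicate 3, old control replicate 1), the log2 fold change with age went from 0.31 to 0.77 (edgeR adjusted p = 0.148), and without old control replicate 4 it was 0.15. The first 2 libraries were picked for lying between the groups, so a wider difference without them follows in part from that choice.

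Icam1, which binds the beta-2 integrins of white blood cells, was at 39.4, 31.6, 45.5 and 40.7 CPM in young controls, 45.0, 28.0, 71.2 and 80.9 CPM in old controls and 60.1, 40.5, 64.9 and 36.8 CPM in treated rats. Old control replicates 3 and 4 were above every young library, whereas old control replicate 2 was the lowest library of the study. The means were 39.3 ± 5.79, 56.3 ± 24.2 and 50.6 ± 14.0 CPM (SD, n = 4), and the coefficient of variation was 14.7% in young and 43.0% in old controls. Old controls exceeded young controls 1.43-fold (95% interval 0.978 to 2.10, edgeR unadjusted p = 0.0636, adjusted p = 0.986). Treated rats stood at 0.898 of old controls (0.616 to 1.31, adjusted p = 0.999) and at 1.29 times young controls (0.878 to 1.88, adjusted p = 0.844). Without old control replicate 4 the log2 fold change with age went from 0.52 to 0.29, and that of treated against old controls from -0.16 to 0.071.

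The order of the group means was the same in Nos3, Edn1, Vcam1 and Icam1, with young controls lowest, treated rats in the middle and old controls highest. In Flt1 it was the reverse, and in Cav1 the mean was highest in young controls and lowest in treated rats. No neighbours in any of these orders differed beyond the spread of their libraries.

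How the members varied together was examined over the 12 libraries as correlations of log2 CPM with the group means removed, so that a difference between groups does not enter. Nos3 and Flt1 moved together. Their centred Pearson r was 0.92 (exact permutation within groups over 13824 orderings, two-sided p = 7.2e-05, the smallest these orderings can give, adjusted p = 0.00109 over 15 pairs), the 1 pair of 15 that passed the adjustment. Without the 2 libraries farthest from the median of Nos3, young control replicate 2 and old control replicate 4, it was 0.91. With the group means left in, r was 0.71 (permutation p = 0.0113, adjusted p = 0.0773) and Spearman's rho 0.57 (permutation p = 0.0569, adjusted p = 0.213), and r was 0.66 without those 2 libraries. Both genes are deeply counted, at 690 to 5208 counts in each library. Among the 12495 other tested genes, Flt1 ranked 32 by its centred r with Nos3, and Nos3 ranked 14 by its centred r with Flt1. All genes ranked ahead followed Nos3 or Flt1 more closely than these 2 followed each other.

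Vcam1 varied with Nos3 at a centred r of 0.70 (exact permutation p = 0.0360, adjusted p = 0.180) and with Icam1 at 0.65 (exact permutation p = 0.0299, adjusted p = 0.180). Among the 12495 other tested genes, Vcam1 ranked 522 by its centred r with Nos3, and Icam1 ranked 520 by its centred r with Vcam1. Many genes thus followed Nos3 or Vcam1 more closely, and these pairs do not stand out over all genes. With group means left in, Vcam1 with Nos3 gave r = 0.73 (permutation p = 0.00396, adjusted p = 0.0594) and rho = 0.82 (permutation p = 0.00204, adjusted p = 0.0306). Vcam1 with Icam1 gave r = 0.69 (permutation p = 0.0155, adjusted p = 0.0773) and rho = 0.73 (permutation p = 0.00992, adjusted p = 0.0744). Without the 2 libraries farthest from the median, the pooled r was 0.70 for Vcam1 with Nos3 and 0.72 for Vcam1 with Icam1. Of these 4 values only the rho of Vcam1 with Nos3 passed the adjustment.

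Cav1 stood apart from the other members, with centred r between -0.11 and 0.28 (exact permutation p = 0.456 or higher for the 5 pairs). Edn1 gave 0.74 with Flt1 (exact permutation p = 0.0859, adjusted p = 0.192) and 0.44 with Nos3 (exact permutation p = 0.292, adjusted p = 0.547). Both depended on the libraries that stand apart: without old SVF-treated replicate 2 and old control replicate 4 they were 0.95 and 0.84 (exact permutation, adjusted p = 0.0347 for each). Old control replicate 4 joined the highest Nos3 of the study to the lowest Edn1 of its group, and 725 of the tested genes had no count in it. With all libraries, Edn1 ranked 375 among the 12495 other tested genes by its centred r with Flt1, and Flt1 ranked 182 by its centred r with Edn1.

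**Figure D3:**
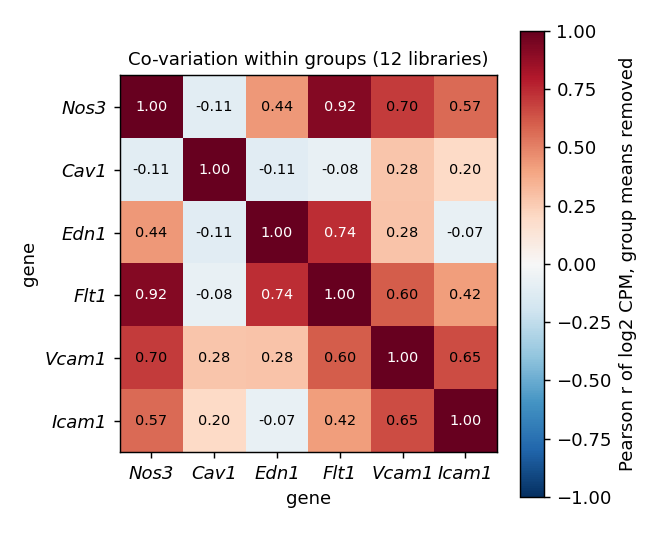
Pearson r of log2 CPM between pairs of genes over 12 libraries after removal of group means (colour and printed value, from -1 to 1; both axes list the 6 genes). Nos3 and Flt1 give 0.92, while the values of Cav1 with the other 5 genes lie between -0.11 and 0.28.

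The ratio of Flt1 to Nos3 within a library separated the old controls from both other groups. Its coefficient of variation within a group was 9.09% in young controls, 11.3% in untreated old rats and 2.44% in treated rats, below that of Nos3 (21.9%, 23.5% and 10.8%) and of Flt1 (28.9%, 12.2% and 10.9%). Flt1 counts per 100 Nos3 counts were 60.3, 50.2, 61.7 and 55.7 in young controls, 47.3, 42.6, 41.0 and 35.8 in old controls, and 50.2, 50.8, 48.5 and 51.4 in old SVF-treated rats. All 4 old controls lay below all 4 young controls, and all 4 treated libraries lay above all 4 old controls. Old SVF-treated replicates 2 and 4 lay just above young control replicate 2 and replicates 1 and 3 below it, and all 4 treated libraries lay below the other young controls. Depth and scaling cancel in this ratio. It was not steady over the Nos3 level within the control groups. Across the 4 young controls the ratio rose with Nos3 CPM, and across the 4 old controls it fell. The reason was not tested. The 95% Wilson intervals, which cover counting error only, reached from 34.0 to 37.8 in old control replicate 4 and from 45.8 to 55.0 in young control replicate 2, the library with the fewest Flt1 counts.

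**Figure D4:**
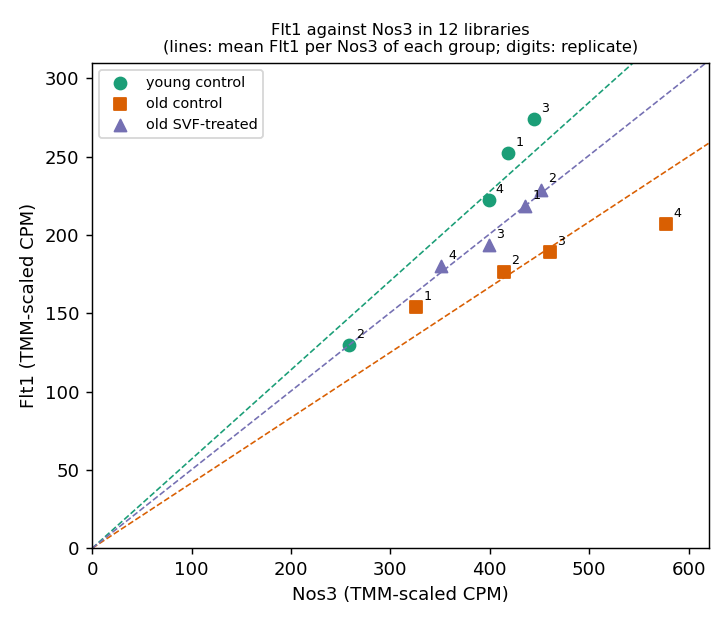
Flt1 (y axis) against Nos3 (x axis) in TMM-scaled CPM, 1 point per library with its replicate number; dashed lines through 0 show the mean Flt1 count per Nos3 count of each group. The old controls lie about the lowest line, at 41.7 Flt1 counts per 100 Nos3 counts, and the young controls about the highest, at 57.0. The lines are group means and not fits to the points.

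The mean was 57.0 ± 5.18 Flt1 counts per 100 Nos3 counts in young controls, 41.7 ± 4.72 in untreated old rats and 50.2 ± 1.23 in treated rats (SD, n = 4). On the log2 scale the ratio in old controls differed from young controls by -0.45, 0.731-fold (exact permutation test over 70 splits, two-sided p = 0.0286, the smallest 4 libraries against 4 can give). Treated rats differed from old controls by 0.27, 1.21-fold (exact permutation p = 0.0286), and from young controls by -0.18, 0.884-fold (exact permutation p = 0.0857). The first 2 comparisons share the old controls. With 15 ratio comparisons made, neither passed the adjustment (exact permutation, adjusted p = 0.214 for both and 0.429 for the third). With 4 libraries against 4, it could be passed only if most of the 15 comparisons reached the smallest possible p. The adjusted values therefore cannot decide whether the ratio differs. Leaving out any 1 library kept the age difference between -0.51 and -0.38 and the treatment difference between 0.20 and 0.34. These ranges show the size only, since groups without overlap cannot reverse when 1 library is left out. The level of a gene relative to Nos3 was lower in all old than in all young controls, without overlap, for 1.87% of the 12495 other genes, and higher in all treated than in all old control libraries for 1.17%. Flt1 is in both sets. Each share counts only the direction that Flt1 took, whereas the permutation test is two-sided. The shares in either direction were not computed. By chance alone, 1 of the 70 splits separates the groups in a given direction, so shares of this size are not unusual. The sets share the old controls and the Nos3 values, and the share of genes in both was not computed.

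Tests of this ratio over all genes, added after the ratios had been seen, did not call it. With each gene taken relative to Nos3, limma gave Flt1 a log2 difference with age of -0.45 (95% interval -0.90 to -0.0038, unadjusted p = 0.0482, adjusted p = 0.820) and with treatment of 0.27 (-0.17 to 0.72, adjusted p = 1.0). It called 0.016% of genes in the first comparison and 0% in the second. By p, Flt1 ranked 616 with age and 1728 with treatment in this fit. With Nos3 as a covariate, edgeR gave -0.44 with age (unadjusted p = 0.00261, adjusted p = 0.428, rank 76 of 12495 genes) and 0.26 with treatment (unadjusted p = 0.0477, adjusted p = 1.0, rank 425), and called 0.072% and 0% of genes.

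**Figure D5:**
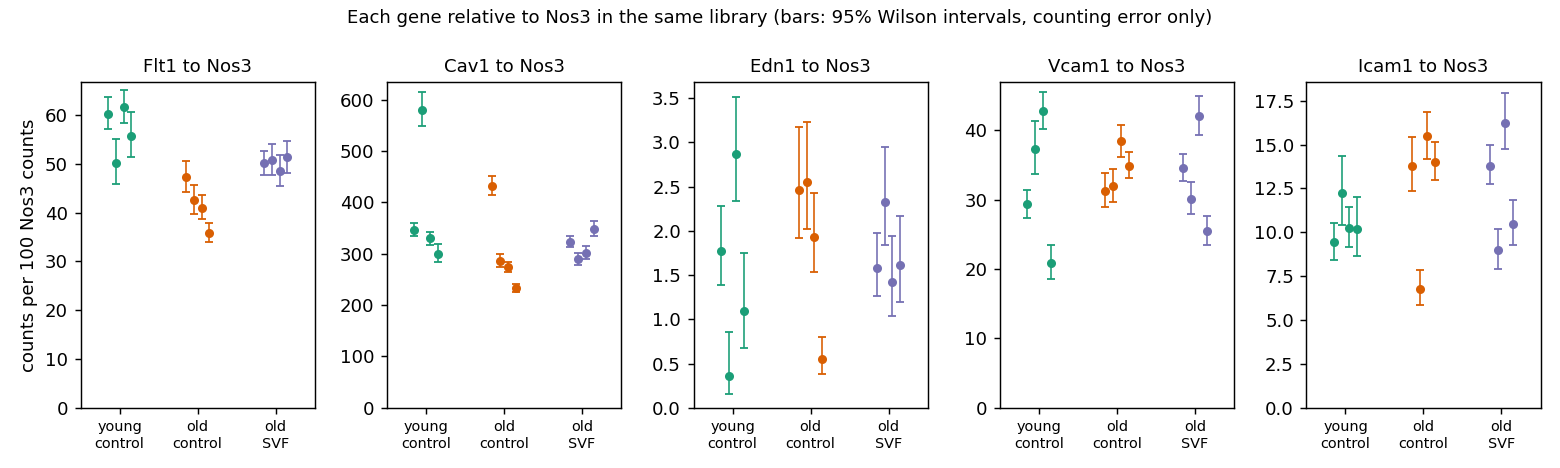
Counts of each of 5 genes per 100 Nos3 counts in the same library (y axis, from 0) by group (x axis), with 95% Wilson intervals that cover counting error only. Flt1 separates old controls from both other groups, and for Cav1, Edn1, Vcam1 and Icam1 the groups overlap.

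The other 4 ratios to Nos3 did not separate any groups. Per 100 Nos3 counts, Cav1 was at 389 ± 129 in young controls, 306 ± 86.6 in untreated old rats and 316 ± 26.0 in treated rats (SD, n = 4). Edn1 was at 1.52 ± 1.06, 1.88 ± 0.921 and 1.74 ± 0.405, which sets the constrictor gene against the nitric oxide synthase gene in the same pools. Vcam1 was at 32.6 ± 9.59, 34.2 ± 3.26 and 33.1 ± 7.06. Icam1 was at 10.5 ± 1.19, 12.5 ± 3.91 and 12.4 ± 3.27, with old control replicate 2 lowest at 6.76 and old SVF-treated replicate 3 highest at 16.3. The exact permutation p-values of these 12 comparisons ranged from 0.314 to 0.971. Of all 15 pairs of members, Flt1 with Nos3 was the 1 pair whose ratio did not overlap between old and young controls, and also the 1 pair between treated and old controls, and between treated and young controls there were 0 such pairs. The share of such pairs among other genes was not computed, so whether these counts are unusual is not known.

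The 2 genes most like each member over the 12 libraries, among genes of at least 10 CPM on average, followed it at a Pearson r of 0.85 to 0.94. They were picked as the highest of 8933 or 8934 values for each member, so a high r follows in part from that choice. For Nos3 the 2 genes were ENSRNOG00000024580 and ENSRNOG00000025892, both at r = 0.94. The sources used here do not pair these IDs with symbols.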

How the data were processed

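Per the labels, RNA was polyadenylated, from pooled coronary microvessels, and libraries were made with a NuGEN Universal Plus kit. The authors deposited raw counts per Ensembl gene ID, 1 column for each of 12 libraries, which were matched by their description labels. Per the submitters' processing notes, FastQC 0.10.1, HTSeq 0.10.0 and build rn6 were used. Aligner, annotation release and strand setting are not given in the sources used here. Overlapping or antisense genes may therefore share reads.

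Counts were analysed with edgeR 4.0.16 (R 4.3.3): filterByExpr (minimum count 10, total 15), TMM, 1 quasi-likelihood model of 3 groups on 12 libraries, Benjamini-Hochberg adjustment over 12496 genes. Log2 CPM has a prior count of 2. Ratios to Nos3 and centred correlations were tested by exact permutation over libraries. Pearson r and Spearman's rho with the group means left in were tested by 100000 random permutations. Alternatives were DESeq2 1.42.0, limma 3.58.1 voom, other scalings, no filter, 2-group fits, a replicate block and left-out libraries. The fit was tested on simulated data.

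The members and gene lists were chosen with earlier results of these data known. The symbols of the 6 members come with the list that defines them. Reference tables matched 0 of 24600 IDs, so the lists of pathway partners and cell type markers, set by symbol, were not analysed here, and the share of endothelium in each pool was not measured by other genes. Named genes were to be the members, partners with a symbol and the 2 genes most alike each member.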

Additional observations from a re-analysis of the deposited data

Results flagged for a closer look

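In Cav1, 2 values stood apart from the rest of their group, among 33 groups of 4 values examined. The limit used was Dixon's 95% value for the gap to the nearest library, which chance alone exceeds about once in 20 groups. The lowest young control for Cav1 was replicate 4 at 1197 CPM, with the others between 1452 and 1499 CPM. Relative to Nos3, the highest young control was replicate 2 at 579.9 Cav1 counts per 100 Nos3 counts, with the others between 300.3 and 347. In young control replicate 2 the Cav1 level itself was the highest of the study, at 1499 CPM, and Nos3 the lowest, at 259 CPM. That library had 567 tested genes without a count, and young control replicate 4 had the lowest total count, 4068021. The part of either in these values was not tested.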

How the results depend on the processing

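No member was called in any comparison under any of the 21 alternatives. The lowest adjusted p was 0.148 (edgeR), for Vcam1 with age without both libraries between the groups. That omission tends to widen age differences, though it narrowed that of Flt1. Of 378 member fold changes recomputed, 358 kept their direction. In old SVF-treated against old controls the log2 fold change reversed for Cav1 with library totals alone (0.0076), limma voom (0.0049) and without both libraries between the groups (0.016), for Edn1 with the replicate block (0.0098), and for Icam1 without both libraries that stand apart (0.17). Against young controls it reversed for Edn1 without the libraries that stand apart (-0.081) and for Flt1 without those between the groups (0.039). Leaving out 1 library at a time gave, with age, -0.10 to 0.83 for Edn1. In treated against old controls it gave -0.24 to 0.031 for Nos3, -0.064 to 0.023 for Cav1, -0.35 to 0.095 for Edn1 and -0.38 to 0.071 for Icam1. In treated against young controls it gave -0.041 to 0.19 for Nos3, -0.20 to 0.74 for Edn1, -0.28 to 0.025 for Flt1 and -0.0036 to 0.43 for Vcam1. The cause was not tested. The Flt1 to Nos3 difference kept its direction in all 3 comparisons under all alternatives. Most of these could not reverse it in old against young controls or in treated against old controls. Scaling cancels in the ratio, and the replicate block and limma on the ratio keep the difference of means. Groups without overlap cannot reverse when 1 library is left out.

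Leaving out 1 library gave reversals in other log2 ratios to Nos3. With age these were -0.13 to 0.86 for Edn1 and -0.084 to 0.26 for Vcam1. In treated against old controls they were -0.038 to 0.26 for Cav1, -0.42 to 0.29 for Edn1, -0.19 to 0.051 for Vcam1 and -0.26 to 0.16 for Icam1. In treated against young controls they were -0.056 to 0.83 for Edn1 and -0.15 to 0.19 for Vcam1. With Nos3 as a covariate, chosen after seeing the data, the treated against old differences were -0.021 for Cav1, -0.12 for Edn1 and -0.027 for Icam1. Centred correlations reversed by Spearman's rho for Nos3 with Cav1 (0.10) and Cav1 with Edn1 (0.036). They reversed without the 2 farthest libraries for Nos3 with Cav1 (0.034), Cav1 with Edn1 (0.48), Cav1 with Flt1 (0.43) and Cav1 with Icam1 (-0.035). Without both libraries that stand apart, Edn1 with Icam1 was 0.27, and Nos3 with Edn1 (0.84) and Edn1 with Flt1 (0.95) passed the threshold.

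Over all genes, the 5 calls with age became 17 by limma voom, 23 by DESeq2, 33 without both libraries between the groups and 0 to 12 without 1 library. The 8 calls of treated against young became 15 with no filter, 3 with only the 2 groups, 33 by limma voom, 56 by DESeq2, 32 without the libraries that stand apart, 33 without those between the groups and 0 to 22 without 1 library. Same-numbered libraries did not clearly deviate together over all genes (12 correlations from -0.0056 to 0.090, 4 of 12 with their own number best). Whether they share a batch was not tested. The replicate block gave 7, 0 and 2 calls in the 3 comparisons.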
